A study of Homo sapiens with 2 samples.

Results

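The microRNAs described here are those encoded inside the human HOX clusters: miR-10a, miR-10b, miR-196a, miR-196b and miR-615. They were chosen by name, as 7 of the 2656 mature microRNAs in a table of raw read counts: hsa-miR-10a-5p, hsa-miR-10a-3p, hsa-miR-10b-5p, hsa-miR-10b-3p, hsa-miR-196a-5p, hsa-miR-196b-5p and hsa-miR-615-3p. Small RNA was sequenced from MDA-MB-231, an established triple-negative breast cancer cell line with mesenchymal features. The cells were transduced either with shELOVL5, an shRNA against the fatty acid elongase ELOVL5, or with the control shRNA shLuc, so both groups carried an shRNA. The table lists a mature microRNA once for each of its precursors. With the highest row of each kept, the counts came to 7109272 in shLuc and 6811811 in shELOVL5. Summed over all rows they were 8802906 and 8544678. There was 1 library per condition. Each library therefore stands for 1 RNA sample, and without a spread between cultures no difference was tested. The growth protocol describes cultured cells, whereas the extraction text speaks of tumor material. The table holds microRNAs only, so the ELOVL5 transcript itself was not analysed here.

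HOX genes encode homeodomain transcription factors that give cells positional identity along the body axis, and they lie in 4 clusters, HOXA to HOXD. The miR-10 hairpins sit near the group 4 HOX genes and the miR-196 hairpins near the group 9 and 10 genes, and miR-196 is a known repressor of HOXB8. miR-10b is known for promoting invasion in breast cancer models, and miR-10a is its close relative. A hairpin yields a 5p and a 3p arm, of which usually only the guide arm accumulates in Argonaute, and bases 2 to 8 of the guide (the seed) pair with target transcripts.

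Mature sequences from RefSeq (GRCh38.p14) were matched for 6 of the 7 members and are shown because seed and shared stretches decide which members can be told apart by reads. Capitals mark the seed.
hsa-miR-10a-5p: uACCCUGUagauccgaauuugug
hsa-miR-10a-3p: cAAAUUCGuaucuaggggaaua
hsa-miR-10b-3p: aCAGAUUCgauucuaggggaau
hsa-miR-196a-5p: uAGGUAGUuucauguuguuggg
hsa-miR-196b-5p: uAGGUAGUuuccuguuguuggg
hsa-miR-615-3p: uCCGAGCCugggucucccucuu

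The 6 sequences were 22 or 23 nucleotides long. miR-196a-5p and miR-196b-5p had the same seed and differed by A12C, counted from the 5′ end with the base of miR-196a-5p first. The 3p arms of miR-10a and miR-10b shared a run of 11 bases near their 3′ ends, but their seeds differed. miR-615-3p stood apart from the others in composition, with 63.6% G and C against 36.4 to 45.5% in the other 5.

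The 6 hairpins of these microRNAs fall into all 4 HOX clusters. On GRCh38 (GENCODE 29), MIR10A lies in HOXB, on chromosome 17 at 48579838 to 48579947 on the minus strand. It overlaps an exon of 1 HOXB4 transcript and introns of 6 HOXB3 transcripts. MIR196A1 lies 52.5 kb away in the same cluster (chromosome 17, 48632490 to 48632559, minus strand), in an intron of HOXB7. MIR196A2 (chromosome 12, 53991738 to 53991847, plus strand) lies in HOXC, in an intron of HOXC6 and between HOXC10 and HOXC9. MIR615 lies 42.1 kb from it (chromosome 12, 54033950 to 54034045, plus strand), in introns of HOXC5 and HOXC4. MIR10B (chromosome 2, 176150303 to 176150412, plus strand) lies in HOXD, in an intron of HOXD3 and 810 bases before HOXD4. MIR196B (chromosome 7, 27169480 to 27169563, minus strand) lies in HOXA, where it overlaps an exon of 1 HOXA9 transcript and introns of 2 others. On the opposite strand, the antisense RNAs HOXB-AS3, HOXB-AS4 and HOXA10-AS overlap MIR10A, MIR196A1 and MIR196B in turn. hsa-miR-196a-5p is the same molecule from MIR196A1 and MIR196A2, so its reads cannot be ascribed to HOXB or HOXC.

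**Figure D1:**
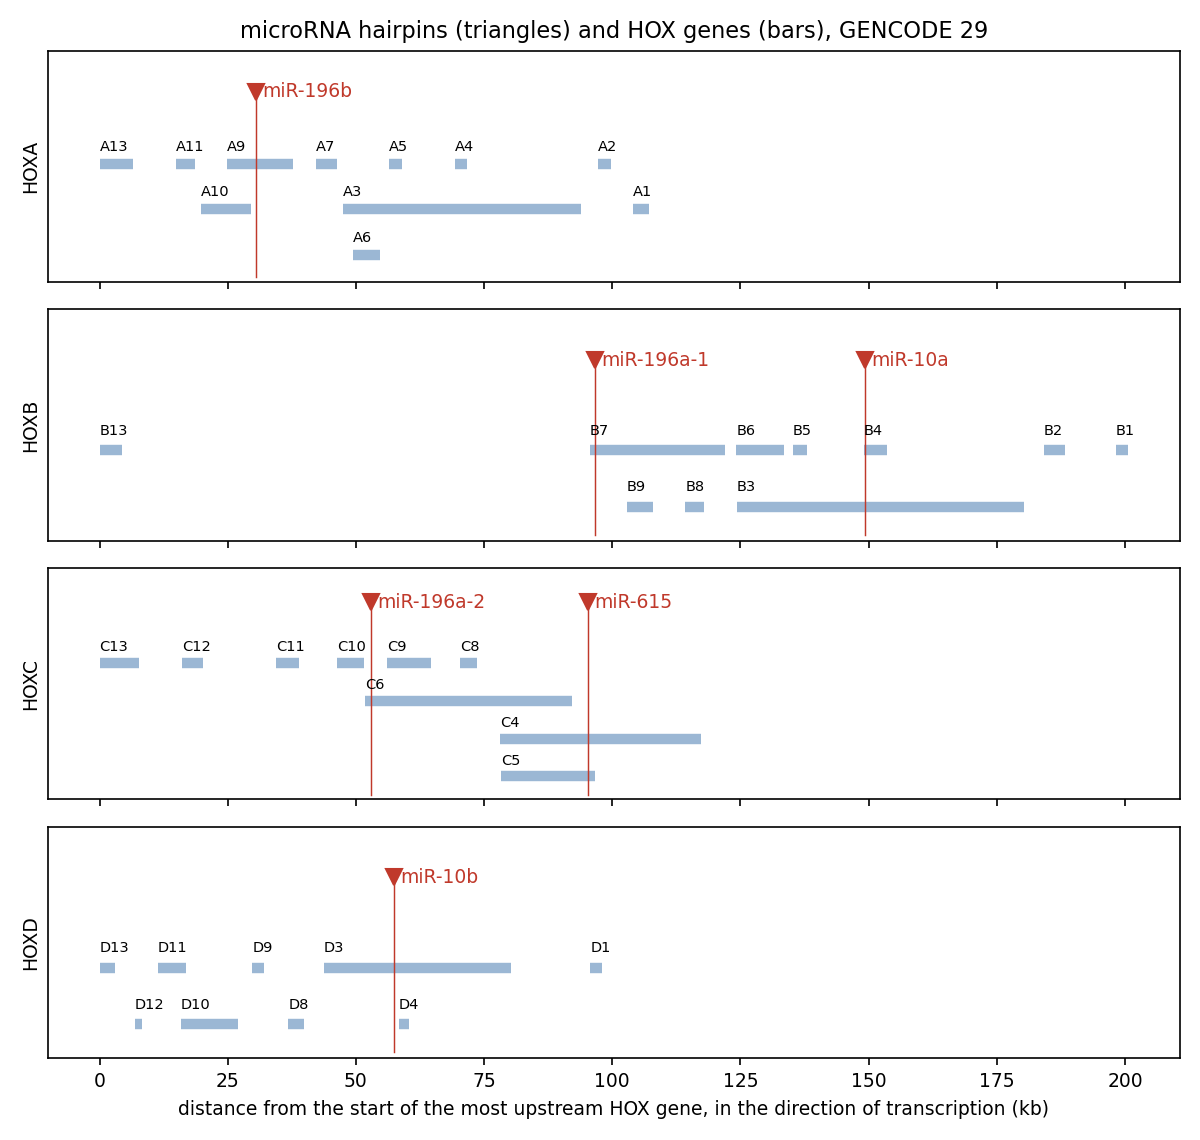
Positions of the 6 microRNA hairpins (triangles) and the annotated HOX genes (bars) in each cluster, as distance in kb from the start of the most upstream HOX gene in the direction of transcription. HOXB and HOXC hold 2 hairpins each, and HOXA and HOXD hold 1 each.

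The HOX-cluster microRNA pool of these cells was almost entirely miR-10a. hsa-miR-10a-5p had 35217 counts in shLuc and 32163 in shELOVL5, which was 95.1% (exact binomial 95% interval 94.8 to 95.3%) and 94.8% (94.5 to 95%) of all member counts. Scaled with TMM factors to counts per 1000000 (CPM), this was 5016 CPM (4964 to 5068) in shLuc and 4663 CPM (4613 to 4714) in shELOVL5. It ranked 33rd among all microRNAs in both libraries. Together the 7 members took 0.521% of the counts in shLuc and 0.498% in shELOVL5, with the highest row of each microRNA kept. Intervals here and below cover counting error only, not variation between cultures, and PCR copies are not separate molecules.

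hsa-miR-615-3p, from the HOXC cluster, had 888 counts (126 CPM, 118 to 135) in shLuc and 781 (113 CPM, 105 to 121) in shELOVL5. hsa-miR-10a-3p, the other arm of the miR-10a hairpin, had 757 counts (108 CPM, 100.3 to 116) in shLuc and 854 (124 CPM, 116 to 132) in shELOVL5. These 3 were the members that passed the expression limit, a mean of at least 50 CPM and at least 100 counts over both libraries, as 191 microRNAs did. The other 4 members did not pass it.

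hsa-miR-10b-5p, the HOXD relative of miR-10a, had 108 counts (15.4 CPM, 12.6 to 18.6) in shLuc and 85 (12.3 CPM, 9.84 to 15.2) in shELOVL5. Its level was 0.307% of that of hsa-miR-10a-5p in shLuc and 0.264% in shELOVL5, so the HOXB member exceeded it 326-fold and 378-fold. miR-10a-5p and miR-10b-5p are close in sequence, and whether some of these few counts were misread miR-10a molecules was not tested. hsa-miR-10b-3p had 1 count in shLuc and 0 in shELOVL5.

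hsa-miR-196a-5p had 75 counts (10.7 CPM, 8.4 to 13.4) in shLuc and 57 (8.26 CPM, 6.26 to 10.7) in shELOVL5, taken from the row of the MIR196A2 precursor. The row of the MIR196A1 precursor listed 64 and 52 counts for the same mature microRNA. hsa-miR-196b-5p, from HOXA, had 0 counts in shLuc and 1 in shELOVL5. Where no read was counted, up to 3 counts remain possible, which is 0.427 CPM in shLuc and 0.435 CPM in shELOVL5. Where 1 count was found, the interval reached 0.794 CPM (miR-10b-3p in shLuc) and 0.808 CPM (miR-196b-5p in shELOVL5). Both microRNAs had at most 1 count per library, so no ratio is given for either.

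Counted by cluster, microRNAs made only from HOXB took 97.1% (96.9 to 97.3%) of member counts in shLuc and 97.3% (97.1 to 97.4%) in shELOVL5. HOXC alone, through miR-615-3p, took 2.4% (2.24 to 2.56%) and 2.3% (2.14 to 2.47%). HOXD took 0.294% (0.242 to 0.355%) and 0.25% (0.2 to 0.31%), and HOXA took 0 counts and 1 count. The rest, 0.202% (0.159 to 0.254%) and 0.168% (0.127 to 0.218%), was miR-196a-5p, which HOXB and HOXC both encode. For each cluster the intervals of the libraries overlapped. How efficiently each sequence enters a small RNA library was not measured, so levels of different microRNAs are read counts and not molecule numbers.

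**Figure D2:**
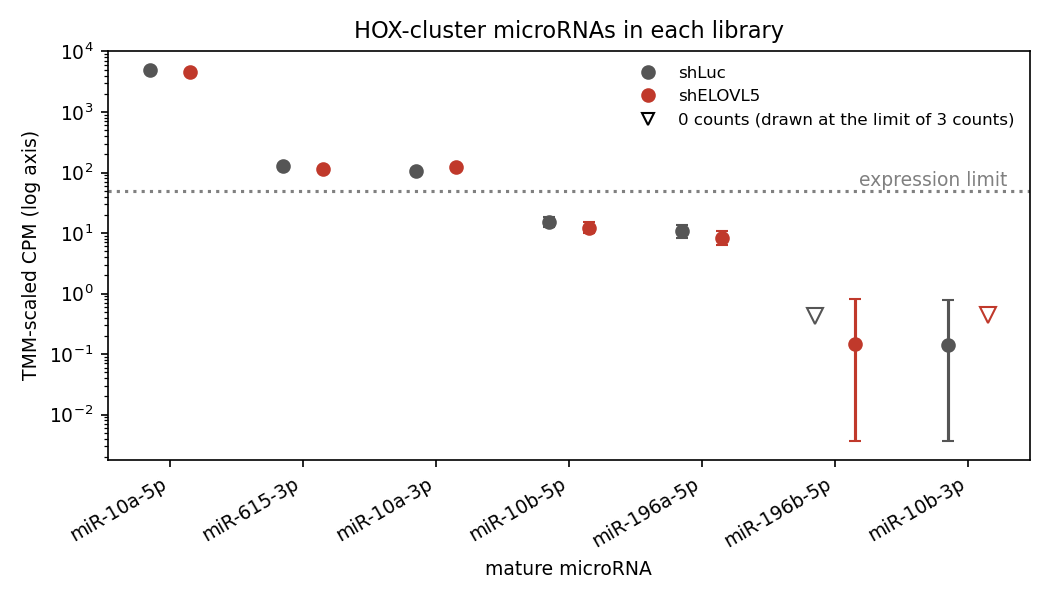
TMM-scaled CPM of each member (log axis) in shLuc and shELOVL5, with exact 95% counting intervals, and with 0 counts drawn as open triangles at the limit that 3 counts set. miR-10a-5p lies near 5016 and 4663 CPM, miR-615-3p and miR-10a-3p between 108 and 126 CPM, and the other 4 members below 16 CPM, under the expression limit of 50 CPM.

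The order of the members was nearly the same in both libraries. hsa-miR-10a-5p came first, 39.7-fold (37.1 to 42.4) above hsa-miR-615-3p in shLuc and 37.7-fold (35.2 to 40.4) above hsa-miR-10a-3p in shELOVL5. The next places changed hands. In shLuc, miR-615-3p lay 1.17-fold (1.06 to 1.29) above miR-10a-3p, whereas in shELOVL5 miR-10a-3p lay 1.09-fold (0.991 to 1.21) above miR-615-3p, which counting error does not separate. hsa-miR-10b-5p lay 1.44-fold (1.06 to 1.96) above hsa-miR-196a-5p in shLuc and 1.49-fold (1.05 to 2.12) in shELOVL5. This order rests on the higher of both miR-196a-5p rows: summed over the rows, miR-196a-5p had 139 counts in shLuc and 109 in shELOVL5, above miR-10b-5p. Both rows list the same mature microRNA, so the sum may count some reads more than 1 time. How such reads were treated is not given in the sources used here.

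Between the conditions the members differed little. Of the 3 expressed members, 0 were at least 2-fold higher in shELOVL5, where 1.57% of the 191 expressed microRNAs were, and 0 were at least 2-fold lower, where 0% were. hsa-miR-10a-5p had a ratio, shELOVL5 over shLuc, of 0.93 (0.916 to 0.944), so shELOVL5 was 1.08-fold lower. hsa-miR-615-3p had a ratio of 0.895 (0.812 to 0.987). hsa-miR-10a-3p went the other way, with a ratio of 1.15 (1.04 to 1.27). The interval thus lay below 1 for 2 of the 3, as it did for 41.9% of all expressed microRNAs, and above 1 for 1 of the 3, as it did for 31.9%. A departure from 1 larger than that of hsa-miR-10a-5p was found in 131 of the 191 expressed microRNAs (68.6%), larger than that of hsa-miR-615-3p in 107 (56%), and larger than that of hsa-miR-10a-3p in 85 (44.5%). The median log2 ratio of the 3 was -0.11, which is the value of hsa-miR-10a-5p, beside -0.033 for all 191. With only 3 values, of which 2 are arms of the same hairpin, this median does not measure a shift of the members as a group.

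The ratio of hsa-miR-615-3p depended on the scaling: with library totals in place of TMM it was 0.918 (0.833 to 1.01), an interval that holds 1. The intervals of hsa-miR-10a-5p and hsa-miR-10a-3p stayed on their side of 1 with TMM factors and with library totals. They did so with DESeq2 size factors too, but these were 1 for both libraries. That setting thus compared raw counts without correction for depth. Lower read numbers left the remaining members undecided. hsa-miR-10b-5p had a ratio of 0.801 (0.596 to 1.07), and hsa-miR-196a-5p had 0.774 (0.538 to 1.11). Both intervals hold 1, and both reach from well below the ratio of miR-10a-5p to above 1. In bulk RNA, a lower level per cell and fewer cells that express a microRNA cannot be told apart.

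**Figure D3:**
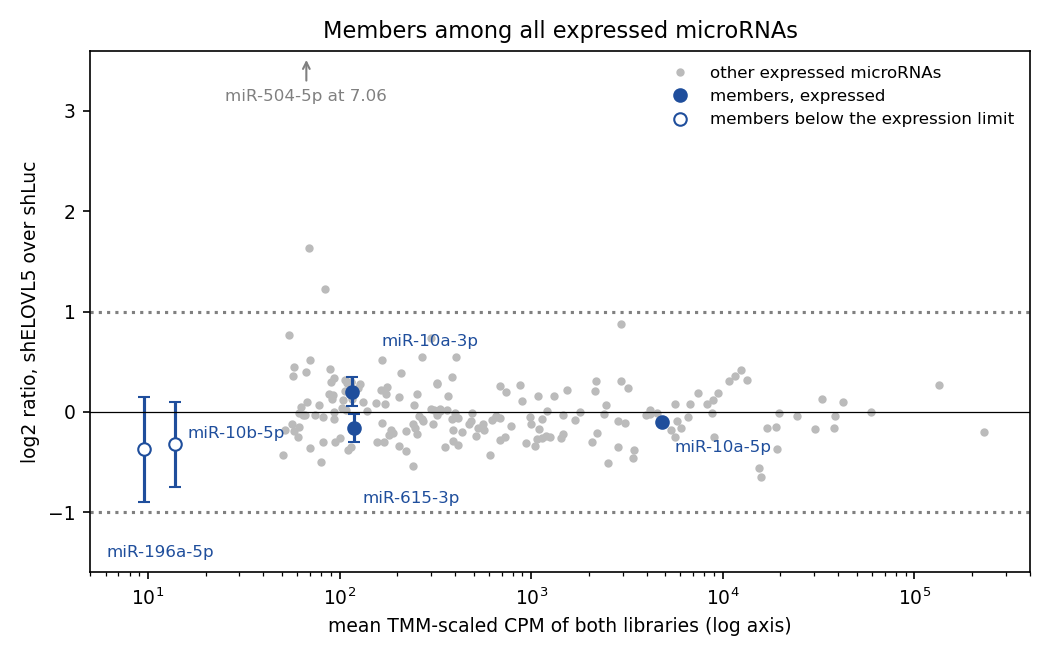
Log2 ratio (shELOVL5 over shLuc) against mean TMM-scaled CPM (log axis) for the 191 expressed microRNAs (grey) and the 5 members with counts enough for a ratio (blue, with 95% counting intervals, open where below the expression limit). All 5 members lie inside the dotted lines that mark a 2-fold difference, miR-10a-3p above 0 and the other 4 below. hsa-miR-504-5p, at 7.06, lies off the axis and is marked by an arrow.

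Differences between members were also taken as a ratio of their ratios, in which the scaling cancels. The ratio of miR-10a-5p was 1.16 times that of miR-10b-5p (0.865 to 1.56), and that of miR-615-3p was 1.12 times that of miR-10b-5p (0.819 to 1.53). The summed 5p arms of miR-196 against the summed 5p arms of miR-10 gave 0.847 (0.591 to 1.21). These 3 intervals hold 1, and none is narrow enough to show that the members changed alike. The pair of miR-196a-5p and miR-196b-5p gave no value, because miR-196b-5p had 0 counts in shLuc.

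Within the miR-10a hairpin the 3p arm had a ratio above 1 and the 5p arm a ratio below it. The hairpin is shown for that reason, with the 5p arm (positions 22 to 44 of 110) and the 3p arm (positions 63 to 84) in capitals.
MIR10A: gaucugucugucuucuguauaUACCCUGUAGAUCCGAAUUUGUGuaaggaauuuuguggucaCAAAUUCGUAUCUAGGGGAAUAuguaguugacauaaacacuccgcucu

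The 3p arm took 2.1% (1.96 to 2.26%) of the hairpin's counts in shLuc and 2.59% (2.42 to 2.76%) in shELOVL5, with 757 of 35974 and 854 of 33017 counts. The 3p over 5p balance was thus 1.24 times (1.12 to 1.37) as high in shELOVL5, a comparison that no scaling changes. A change of arm balance beyond counting error, in either direction, was not rare among hairpins. The miR-10a hairpin was set among 185 hairpins, itself included. Each had at least 100 counts in all and at least 1 count of the less abundant arm in each library. Hairpins that share a mature arm, such as let-7a-1 and let-7a-2, were counted separately. The change of the balance had an interval that excludes 1 in 55 of the 185 (29.7%). In either direction, 88 lay farther from 1 than miR-10a. Many of these rest on few counts. Among the 51 hairpins with at least 500 counts on the less abundant arm, a limit chosen after the values were seen, the interval excluded 1 in 32 (62.7%). The interval lay above 1 in 12 of the 51 and below 1 in 20. In either direction, 10 of the 51 lay farther from 1 than miR-10a, and only 3 had a higher 3p over 5p change. hsa-miR-10a-3p also differed from hsa-miR-615-3p, with a ratio of ratios of 1.28 (1.12 to 1.47), a pair likewise chosen after its values were seen.

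**Figure D4:**
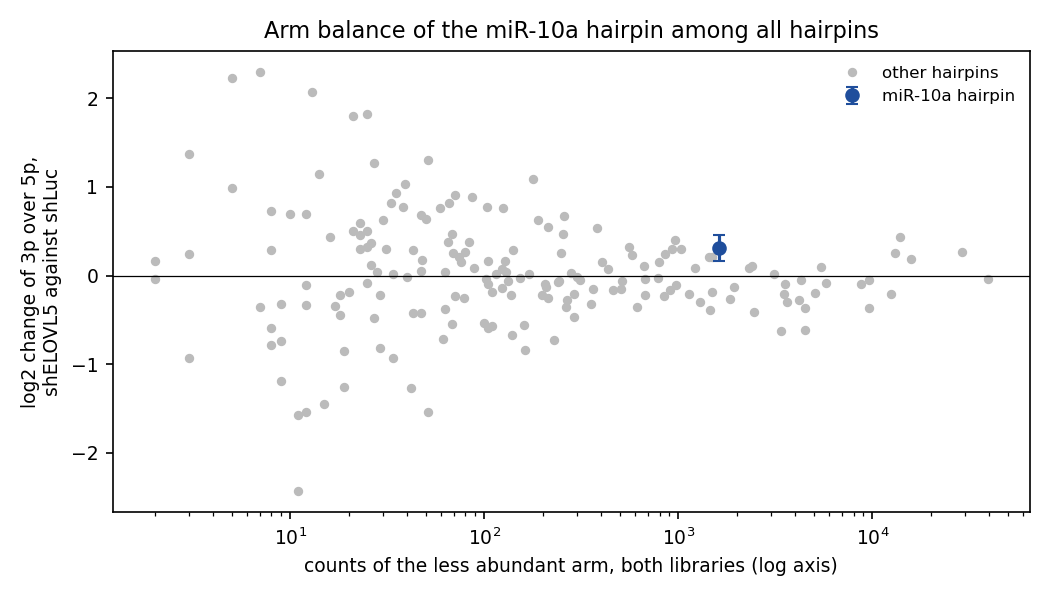
Log2 change of the 3p over 5p balance (shELOVL5 against shLuc) for 185 hairpins, against the counts of the less abundant arm in both libraries (log axis). The miR-10a hairpin (blue, with its 95% counting interval) lies above 0 at 1.24 times, and hairpins with few counts scatter more widely on both sides.

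In the other hairpins the less abundant arm had at most 1 count per library. miR-615 gave 3p reads only, with 888 and 781 counts against 0 and 0 for hsa-miR-615-5p, which allows a 5p share of up to 0.338% in shLuc and 0.384% in shELOVL5. The arm listed for miR-615 was thus the dominant arm, opposite to miR-10a, where the 5p arm dominated. The 3p arms of miR-196 (hsa-miR-196a-1-3p, hsa-miR-196a-3p and hsa-miR-196b-3p) had 0 counts in both libraries. For miR-196a this allows a 3p share of up to 4% in shLuc and 5.26% in shELOVL5, limits that do not exclude a share like that of miR-10a. For miR-10b, the 3p share was 0.917% (0.0232 to 5.01%) in shLuc, an interval that holds the miR-10a share of 2.1%.

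The members have abundant relatives outside the HOX clusters. miR-10 belongs with miR-99 and miR-100, and miR-196 resembles let-7 near the 5′ end. The most abundant relative of each is shown with its seed in capitals.
hsa-miR-100-5p: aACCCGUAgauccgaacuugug
hsa-let-7i-5p: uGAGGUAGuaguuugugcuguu

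hsa-miR-10a-5p and hsa-miR-100-5p shared a run of 11 bases (GUAGAUCCGAA) but not the seed. hsa-miR-196a-5p carried at bases 2 to 8 the stretch AGGUAGU that hsa-let-7i-5p has at bases 3 to 9, a seed shifted by 1 base. Both relatives far exceeded the members. hsa-miR-100-5p was first in both libraries, with 248557 CPM in shLuc and 215747 in shELOVL5, and the summed miR-10 5p arms had 0.0185 and 0.0201 times the counts of miR-99a, miR-99b and miR-100 together. The 3 miR-99/100 members had intervals below 1, like miR-10a-5p, with ratios from 0.678 (hsa-miR-99b-5p) to 0.883 (hsa-miR-99a-5p) and a summed ratio of 0.856 (0.854 to 0.857). Over all expressed microRNAs, 41.9% had an interval below 1 and 31.9% above. The ratio of the summed miR-10 5p arms was 1.09 times (1.07 to 1.1) that of the summed miR-99/100 arms, so the departure from 1 was smaller in miR-10. The 9 let-7 members had a median log2 ratio of -0.0042, with 3 intervals above 1, 2 below and 4 that hold 1. Of the 3 miR-99/100 and 9 let-7 members, 0 were at least 2-fold different, where 1.57% of all expressed microRNAs were higher and 0% lower.

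The microRNAs with a ratio most like that of hsa-miR-10a-5p were hsa-miR-339-3p (0.929), hsa-miR-320a-3p (0.925) and hsa-miR-374b-5p (0.922), by the absolute difference in log2 ratio over 2 libraries. With so few libraries this likeness is loose, as 25 expressed microRNAs lay within 0.05 of it. By abundance, hsa-miR-10a-5p stood between hsa-miR-99a-5p (5668 and 5005 CPM) and hsa-let-7d-5p (4538 and 4490.4 CPM), which have ratios of 0.883 and 0.99. hsa-miR-615-3p and hsa-miR-10a-3p stood next to hsa-miR-132-3p (124 and 113 CPM) on either side.

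The labelled cell type was checked against microRNA lists. All 5 listed microRNAs abundant in mesenchymal breast cancer lines were expressed and took 45.5% of counts in shLuc and 45.6% in shELOVL5. Of the blood cell list, 1 of 7 was expressed, with hsa-miR-144-3p and hsa-miR-223-3p at 0 in both libraries, and the list summed to 398 CPM in shLuc and 331 in shELOVL5. That sum was mostly hsa-miR-486-5p, with 397 and 311 CPM. Among its members that were not expressed, hsa-miR-142-5p went the other way, with 6 counts in shLuc and 84 in shELOVL5, and so did hsa-miR-142-3p, with 2 and 45. The stromal and endothelial list, with 1 of 6 expressed, summed to 638 and 766 CPM, and the epithelial list, with 3 of 5 expressed, to 287 and 371 CPM. Their part in the members' values was not tested.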

How the data were processed

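The authors deposited a table of raw counts, 1 line for each pair of precursor and mature microRNA, without normalization, for 1 shLuc and 1 shELOVL5 library. The submitters' processing notes name Bowtie 1.1.1, cutadapt 2.10 and FastQC 0.11.9. Not given in the sources used here are the counting program, its annotation and mismatch settings, and the treatment of reads with several matches. The table holds no coordinates. The highest precursor row per library was kept for each mature microRNA. Counts were scaled with TMM factors (edgeR 4.0.16, R 4.3.3) of 0.988 for shLuc and 1.01 for shELOVL5. Ratios carry exact Clopper-Pearson 95% counting intervals, and ratios of ratios carry exact conditional intervals; scripts were tested on simulated counts. The 2-fold rule was applied without a test. Named microRNAs were all 7 members, their other arms, the miR-99/100 and let-7 lists, the 3 nearest in ratio to the most abundant member and the abundance neighbours. Marker lists were fixed separately; their members named in the text, and hsa-miR-504-5p in a figure, were chosen after their values were seen. Members and lists were chosen with earlier results of these data known. Positions are from GENCODE 29 and sequences from RefSeq. Alternatives tried were size factors from DESeq2 1.42.0, total count scaling, the sum over precursor rows, 5 CPM added, thinning shLuc to the depth of shELOVL5, other abundance limits and a 1.5-fold rule.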

Additional observations from a re-analysis of the deposited data

How the results depend on the processing

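No paired analysis was possible because shLuc and shELOVL5 have 1 library each, which also means that none could be left out. The log2 ratio of hsa-miR-10a-5p was -0.0692 with total count scaling and -0.131 with DESeq2 size factors, against -0.105. These scalings shift every log2 ratio by 0.036 and -0.026. They also changed the split of the 191 expressed microRNAs, from 61 above and 80 below 1 to 72 and 67 with total counts, and to 59 and 95 with DESeq2. The DESeq2 size factors were 1 for both libraries, so the values under that setting are those of raw counts. The lower total of shELOVL5 was not corrected there. With the sum over precursor rows the share of hsa-miR-196a-5p among member counts was 0.375% in shLuc and 0.321% in shELOVL5. Of the 191 expressed microRNAs, 3 were at least 2-fold higher and 0 lower, and with a 1.5-fold rule these counts were 6 and 1. They were 5 and 0 of 313 with a mean of at least 10 CPM, and 0 and 0 of 68 with at least 1000 CPM. With only 1 count required in each library they were 120 and 77 of 1024. That last set admits microRNAs with as few as 1 count per library, where counting error alone can give a 2-fold ratio. The arm balance had an interval that excludes 1 in 32 of 51 hairpins (62.7%) with at least 500 counts on the less abundant arm, against 55 of 185 (29.7%). Depth limits miR-10b, miR-196a and miR-196b, and all comparisons lack replicate libraries.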
